A study of Homo sapiens with 16 samples.

Results

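The genes described here are 9 enzymes and receptors that make, convert, break down or sense prostaglandins: PTGS1, PTGS2, PTGES, PTGES2, PTGES3, AKR1B1, HPGD, PTGR1 and PTGER4, each a single row of the 58721 gene rows in the count table. They were chosen by name, and the set was proposed because PTGES and HPGD were lower and AKR1B1 was higher with both FOXA1 siRNAs in RT112. The RT112 values with and without those siRNAs are therefore a description for all 9 genes: fitted changes and the number past the threshold are given, and no p-value is. The comparisons between siRNAs of the same kind and between the lines are tested in RT112 for the other 6 genes, and the SCaBER comparisons, which did not enter the choice, for all 9.

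RNA was sequenced from the ends of transcripts in 16 libraries of 2 human bladder cancer cell lines, RT112 (a line of the luminal papillary subtype, grown in RPMI) and SCaBER (a line of the basal/squamous subtype, grown in DMEM). Each line received 10 nM of siControl.1, siControl.2, siFOXA1.1 or siFOXA1.2 with RNAiMax for a short term, and each siRNA has 2 libraries per line that the labels number as experiment batch replicates. FOXA1, the siRNA target, is a forkhead transcription factor that opens chromatin in luminal cells. Every library is of transfected cells, none of untreated cells, and the difference between the lines cannot be told apart from that between their media. In such bulk samples, fewer cells that express a gene and less RNA per cell cannot be told apart.

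Prostaglandins are short-lived lipid signals. Phospholipases free arachidonic acid from membranes, the cyclooxygenases PTGS1 and PTGS2 turn it into prostaglandin H2, and terminal synthases such as PTGES make the E2 form that signals through receptors such as PTGER4. HPGD oxidises the E2 form and PTGR1 reduces the product of that step, which together end the signal. Urothelium both makes and clears these lipids.

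Library totals were 6622473 to 7604581 counts in the 8 RT112 libraries and 4528513 to 6914951 in the 8 SCaBER libraries. Levels are given as CPM, counts scaled to the library total, and a limit of 3 counts was 0.394 to 0.453 CPM in RT112 and 0.434 to 0.662 CPM in SCaBER, covering counting error alone. The defining markers followed the labels: 8 of 10 luminal markers were higher in every RT112 siControl library than in any SCaBER one, and 7 of 8 basal markers were higher in every SCaBER siControl library. KRT20 and UPK3A were at 0 in the siControl libraries of both lines, 3 of 4 leukocyte markers did not exceed 3 counts in any library, and the 5 fibroblast markers summed to 84.6 to 137 CPM in the RT112 and 10.5 to 38.8 CPM in the SCaBER siControl libraries. Most of the RT112 sum was LUM, with a mean of 97.6 CPM, beside COL1A1 at 8.76 CPM and COL1A2, COL3A1 and DCN at 0. FOXA1 was 35.0, 29.4, 18.2 and 28.4 CPM in the RT112 siControl libraries, 1.32 and 3.24 with siFOXA1.1 and 9.18 and 16.0 with siFOXA1.2, all 4 below every siControl library (log2 -3.44 ± 0.47, SE, adjusted p = 2.19e-05 and -1.10 ± 0.39, adjusted p = 0.205, edgeR quasi-likelihood test). In SCaBER FOXA1 was 0.499 to 2.43 CPM with siControl and 0 to 0.951 CPM with siFOXA1, too few counts to check the knockdown (exact two-sided permutation test, p = 0.114, n = 4 against 4). Mitochondrial transcripts took 27.0% ± 1.77 (SD, n = 2) of the counts with siFOXA1.1 in RT112, against 20.01% ± 0.511 with siFOXA1.2 and 20.7% ± 0.778 and 18.5% ± 0.798 with the 2 controls. The part of that share in the siFOXA1.1 results was not tested.

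The stretches around the start sites of 4 of the genes are shown because the results turn on these genes. They are RefSeq sequences of build GRCh38.p14, 250 bases before to 50 after the annotated start, read along the gene. Positions are chr1:186680374-186680673 for PTGS2, chr9:129752993-129753292 for PTGES, chr7:134459051-134459350 for AKR1B1 and chr4:174522439-174522738 for HPGD, all on the minus strand. Capitals mark a TATA box match in PTGS2 and an E-box match in HPGD.
PTGS2 promoter: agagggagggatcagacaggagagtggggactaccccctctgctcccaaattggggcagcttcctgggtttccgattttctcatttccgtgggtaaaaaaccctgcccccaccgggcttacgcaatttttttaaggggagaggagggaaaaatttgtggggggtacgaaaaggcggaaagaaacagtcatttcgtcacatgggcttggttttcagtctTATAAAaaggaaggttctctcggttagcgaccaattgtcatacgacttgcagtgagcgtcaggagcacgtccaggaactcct
PTGES promoter: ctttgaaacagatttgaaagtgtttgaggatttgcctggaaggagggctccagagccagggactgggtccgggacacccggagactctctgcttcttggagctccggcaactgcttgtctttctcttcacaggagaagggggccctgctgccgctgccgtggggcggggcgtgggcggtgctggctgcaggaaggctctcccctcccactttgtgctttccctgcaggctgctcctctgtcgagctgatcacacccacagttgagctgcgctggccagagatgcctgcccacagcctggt
AKR1B1 promoter: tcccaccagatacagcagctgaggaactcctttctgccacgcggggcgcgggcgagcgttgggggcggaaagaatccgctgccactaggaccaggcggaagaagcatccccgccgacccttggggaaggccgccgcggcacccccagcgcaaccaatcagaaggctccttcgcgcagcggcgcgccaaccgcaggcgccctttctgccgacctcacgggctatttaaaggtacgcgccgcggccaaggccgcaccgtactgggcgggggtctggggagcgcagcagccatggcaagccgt
HPGD promoter: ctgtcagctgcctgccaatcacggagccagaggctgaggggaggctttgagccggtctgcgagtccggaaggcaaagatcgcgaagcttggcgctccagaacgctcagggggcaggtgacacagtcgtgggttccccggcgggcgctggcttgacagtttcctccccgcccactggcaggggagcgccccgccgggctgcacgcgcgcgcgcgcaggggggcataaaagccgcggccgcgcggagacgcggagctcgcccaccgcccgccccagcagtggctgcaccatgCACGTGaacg

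Of 4 kinds of motif searched on both strands of all 9 promoters, 3 matches were found. The TATA box letters TATAAA start at position -32 from the PTGS2 start, and they stand at -208 on the opposite strand of PTGS1. The E-box letters CACGTG start at position 41 of HPGD, inside the transcribed part. None of the 9 windows held the forkhead letters TGTTTAC, its variant with the letters TATTTAC or its variant with the letters TGTTTGC. None held the NF-kB letters GGGACTTTC, or the NF-kB variant with the letters GGGAATTTC. For every motif only the exact letters were searched, so sites spelled otherwise were not counted. Among 35116 promoters of the same length, 11.5% held the TATA letters, 7.26% the E-box letters, 9.57% a forkhead word and 0.703% an NF-kB word. The GC content was 50.7% in the PTGS1 and PTGS2 windows and 61.7% in that of PTGES, 68.7% in AKR1B1 and 71.0% in HPGD.

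**Figure D1:**
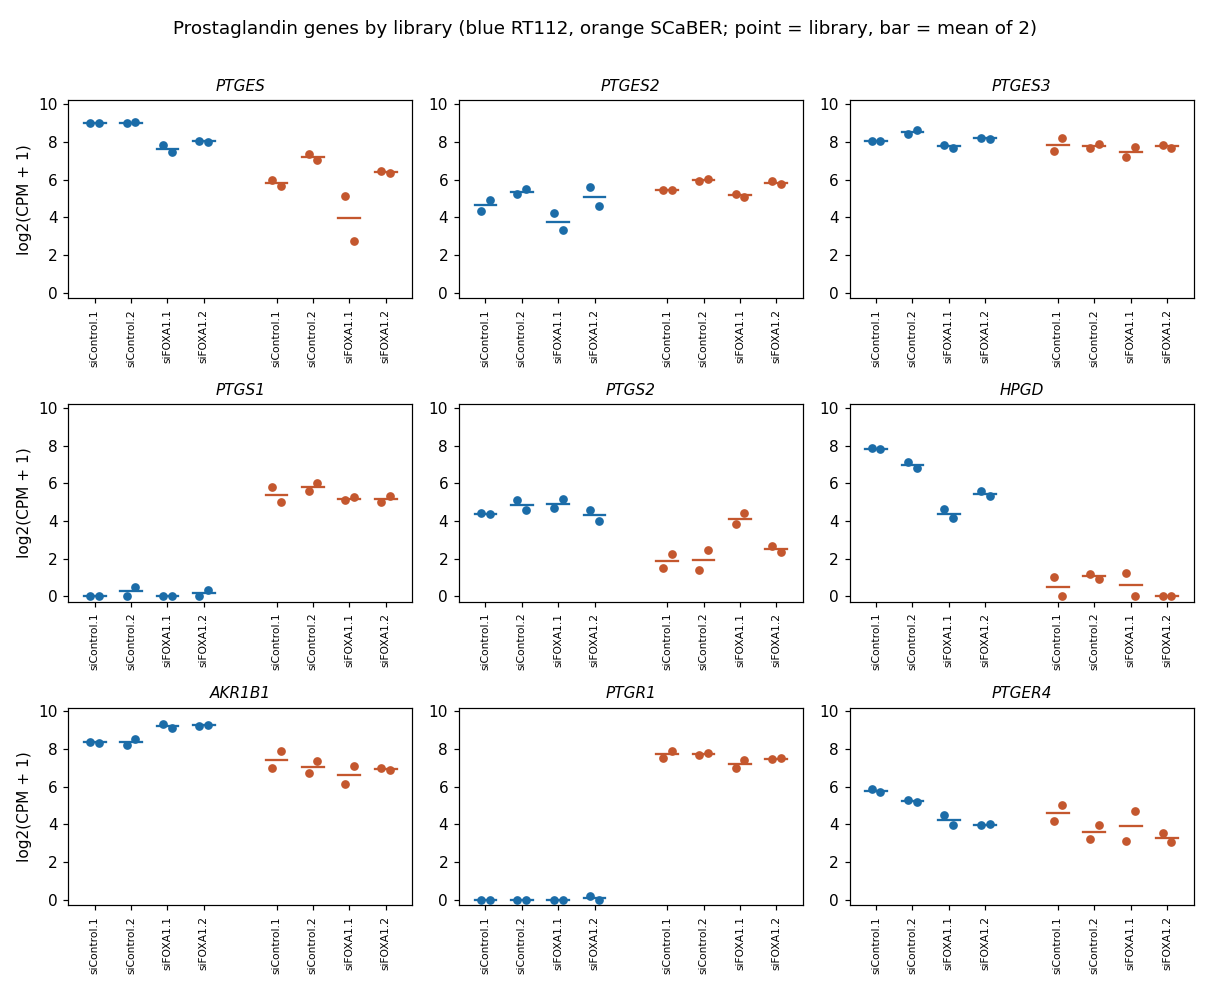
Level of each of the 9 genes, as log2(CPM + 1), in every library by siRNA, RT112 in blue and SCaBER in orange; points are libraries and bars the means of 2. PTGS1 and PTGR1 stay near 0 in RT112, HPGD stays near 0 in SCaBER, and the RT112 siFOXA1 points of HPGD, PTGES and PTGER4 lie below and those of AKR1B1 above the siControl points.

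The 2 lines differed in the levels of these genes, with PTGS1 and PTGR1 near 0 in RT112 and HPGD near 0 in SCaBER. Of the 6 genes not chosen on their values, PTGS2, PTGER4 and PTGES3 were higher in RT112 and PTGR1, PTGS1 and PTGES2 were higher in SCaBER in the siControl libraries by edgeR's quasi-likelihood test, where 43.4% of the 12309 genes tested passed. PTGR1 and PTGS1 passed the filter on low counts through SCaBER alone, so their count is no support. The differences of PTGES, HPGD and AKR1B1, all higher in RT112, are a description only.

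PTGR1, which reduces the keto form of prostaglandins and also inactivates leukotriene B4, was 184, 203, 240 and 221 CPM in the SCaBER siControl libraries and was not counted in any of the 4 RT112 siControl libraries. Its level in SCaBER was at least 468-fold higher, taking 3 counts per library as the limit in RT112. A single count was found in 1 of the 4 RT112 siFOXA1 libraries. PTGS1, the constitutive cyclooxygenase, was 53.9, 47.9, 30.9 and 62.5 CPM in SCaBER siControl libraries, and the RT112 siControl libraries held 3 counts in all, from 1 library. The ratio of summed counts was 459 (95% interval 157 to 2229, exact binomial, counting error only).

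HPGD, the enzyme that takes the first step of prostaglandin breakdown, had the opposite pattern, with 230, 138, 226 and 112 CPM in RT112 and 0.998, 1.30, 0 and 0.883 CPM in SCaBER. The groups do not overlap, and the library at 0 allows up to 0.468 CPM. HPGD transcripts were thus counted in RT112 and PTGR1 transcripts in SCaBER, each being at or near 0 in the other line. PTGES, the inducible E2 synthase, was 515, 508, 511 and 526 CPM in RT112 and 61.7, 164, 50.3 and 132 CPM in SCaBER, a log2 difference of 2.35 ± 0.30 (SE). AKR1B1, an aldo-keto reductase that also makes prostaglandin F2, was 330 ± 32.4 CPM in RT112 and 157 ± 55.7 CPM in SCaBER (SD, n = 4).

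PTGS2, the inducible cyclooxygenase, was 20.1, 32.9, 19.8 and 22.9 CPM in RT112 and 1.83, 1.62, 3.74 and 4.42 CPM in SCaBER. Its log2 difference was 3.07 ± 0.39 (SE, edgeR quasi-likelihood test, adjusted p = 1.5e-05). PTGER4, a receptor for the E2 form, was 58.8, 37.8, 50.9 and 36.0 CPM in RT112 and 16.97, 8.28, 31.2 and 14.6 CPM in SCaBER, higher in RT112 by 1.39 ± 0.33 (adjusted p = 0.0035, edgeR). PTGES2, an E2 synthase of membranes, was lower in RT112, at 32.3 ± 10.5 CPM against 52.1 ± 11.1 CPM (log2 difference -0.68 ± 0.25, adjusted p = 0.0387, edgeR). PTGES3, a cytosolic synthase that is also an HSP90 co-chaperone, was 315 ± 62.03 CPM against 227 ± 46.2 CPM (0.48 ± 0.16, adjusted p = 0.0256, edgeR). The PTGES2 call was lost without either SCaBER siControl.2 library or either RT112 siControl.1 library (-0.50 to -0.65, adjusted p up to 0.112). The PTGES3 call was lost without SCaBER siControl.1 replicate 1 or any siControl.2 library of either line (0.38 to 0.48, adjusted p up to 0.0888). On log2(TPM + 1), where the median over all genes is -0.32 and 28.6% rather than 48.9% of the genes called are higher in RT112, the PTGES3 difference is 0.09 (adjusted p = 0.736, limma). PTGES3 has processed pseudogenes that could share its reads.

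Per length, as TPM, PTGES led in RT112 siControl libraries at 532 ± 21.2 TPM (SD, n = 4), ahead of PTGES3 at 182 ± 41.2 and AKR1B1 at 177 ± 18.2 TPM, which did not differ beyond their spread. In SCaBER PTGES3 at 172 ± 40.0, PTGR1 at 145 ± 20.4, PTGES at 137 ± 72.8 and AKR1B1 at 111 ± 42.5 TPM lay within each other's spread. Reads from transcript ends do not grow with length, so TPM understates long transcripts.

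**Figure D2:**
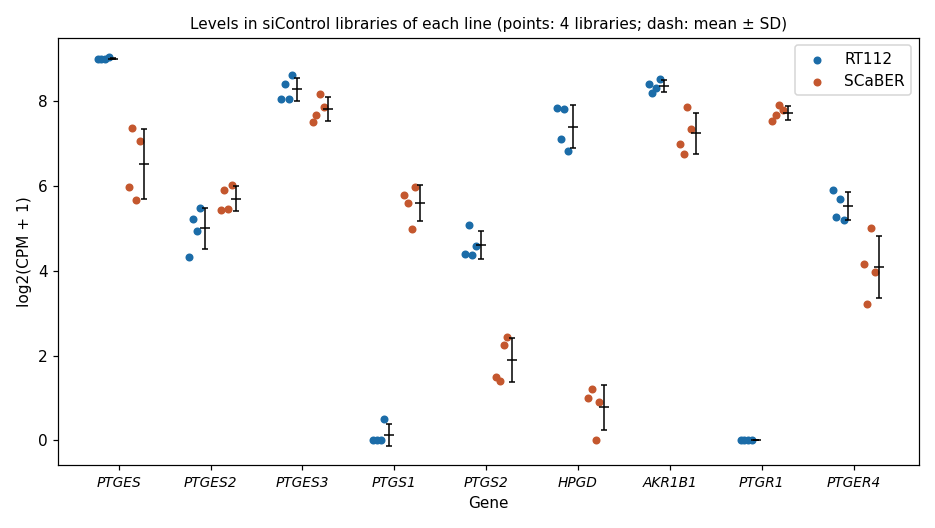
Levels as log2(CPM + 1) of the 9 genes in the 4 siControl libraries of RT112 (blue) and of SCaBER (orange), with the mean ± SD as a dash. PTGS1 and PTGR1 are near 0 in RT112 and HPGD is near 0 in SCaBER, while PTGES3 and PTGES2 lie closest together between the lines.

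In RT112, 7 of the 9 genes had enough counts to be fitted, PTGS1 and PTGR1 falling below the filter. With siFOXA1.1, 5 were past the threshold on the lower side and 1 on the higher, and with siFOXA1.2, 3 and 1. Of all 11986 genes tested, 32.6% were called with siFOXA1.1 and 2.04% with siFOXA1.2, and nothing is read from the members' counts, since the rule used these contrasts. The 4 siFOXA1 and 4 siControl libraries did not overlap for PTGES, HPGD, AKR1B1 and PTGER4, where 7.95% of all genes tested were so separated.

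HPGD changed the most. It was 230, 138, 226 and 112 CPM with siControl, 23.6 and 16.5 CPM with siFOXA1.1, and 47.4 and 38.2 CPM with siFOXA1.2. Levels were 11.3% and 24.2% of the siControl mean (log2 -2.94 ± 0.20 and -1.96 ± 0.18, SE). The controls themselves differed: the siControl.1 libraries stood above both siControl.2 libraries, by 0.93 ± 0.19 on the log2 scale. Both siFOXA1 siRNAs were below the lower control in each library, and siFOXA1.1 was below siFOXA1.2 by 0.98 ± 0.21.

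PTGES was 515, 508, 511 and 526 CPM with siControl, 229 and 174 CPM with siFOXA1.1, and 265 and 257 CPM with siFOXA1.2. The 4 siControl values lie within 20 CPM of each other and all siFOXA1 values lie far below them, at 39.1% and 50.7% of the siControl mean (log2 -1.22 ± 0.12 and -0.96 ± 0.12). PTGER4 was 58.8, 37.8, 50.9 and 36.0 CPM with siControl, 21.7 and 14.7 CPM with siFOXA1.1 and 14.4 and 15.3 CPM with siFOXA1.2, or 39.7% and 32.4% of control (-1.17 ± 0.26 and -1.58 ± 0.27). A synthase, the breakdown enzyme and a receptor were all lower in the same libraries, but the falls of PTGES and HPGD were the reason for choosing the set.

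AKR1B1 was the gene with higher levels. It was 338, 294, 318 and 371 CPM with siControl, 635 and 556 CPM with siFOXA1.1, and 600 and 622 CPM with siFOXA1.2. Both siRNAs gave nearly the same level, 180% and 185% of the siControl mean (log2 0.99 ± 0.10 and 0.91 ± 0.10). The siRNAs differed by 0.08 ± 0.12. On log2(TPM + 0.1) the siFOXA1.1 value is 0.66, with the median of all genes at -0.35, and with library totals in place of TMM that median is -0.14. Of all genes called with siFOXA1.1, 47.9% were higher, 36.9% with library totals and 19.6% on log2(TPM + 0.1). AKR1B10, a paralog with similar sequence, was lower with siFOXA1.1 in RT112 (-2.36 ± 0.87, adjusted p = 0.0446, edgeR). With siFOXA1.2 it gave -0.15 ± 0.74 (adjusted p = 0.971, edgeR), and siControl.1 stood above siControl.2 by 2.06 ± 0.87 (adjusted p = 0.302, edgeR).

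PTGES2 differed between the siRNAs. It was 19.2, 36.6, 29.7 and 43.8 CPM with siControl, 18.01 and 8.84 CPM with siFOXA1.1, and 47.1 and 23.5 CPM with siFOXA1.2, so that siFOXA1.1 lay below siFOXA1.2 by a log2 difference of -1.28 ± 0.39 (adjusted p = 0.0196, edgeR). That call is lost without siFOXA1.2 replicate 1 (-0.71, adjusted p = 0.306) or without siFOXA1.1 replicate 2 (-0.88, adjusted p = 0.13). PTGES3 was 267, 337, 263 and 393 CPM with siControl, 231 and 201 CPM with siFOXA1.1, and 297 and 289 CPM with siFOXA1.2 (difference of the siRNAs -0.33 ± 0.13, adjusted p = 0.067, edgeR). In PTGS2 the siFOXA1 libraries overlapped the siControl libraries, at 20.1, 32.9, 19.8 and 22.9 CPM with siControl, 24.7 and 34.3 CPM with siFOXA1.1 and 23.2 and 14.9 CPM with siFOXA1.2 (difference of the siRNAs 0.76 ± 0.34, adjusted p = 0.116, edgeR). PTGER4 gave 0.40 ± 0.29 (adjusted p = 0.342, edgeR). Of these 4 genes, the ones fitted that were not chosen on their values, PTGES2 was the only 1 called between siFOXA1.1 and siFOXA1.2, where 28.1% of all genes tested were called. Those calls were 46.4% higher in direction, 36.4% with library totals and 22.3% on log2(TPM + 1), and PTGES3 was called as well on those scales. Between the controls edgeR called 0 of the 4 genes and DESeq2 called 1, with 2 at an unadjusted p under 0.05, where edgeR called 2.36% of all genes.

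**Figure D3:**
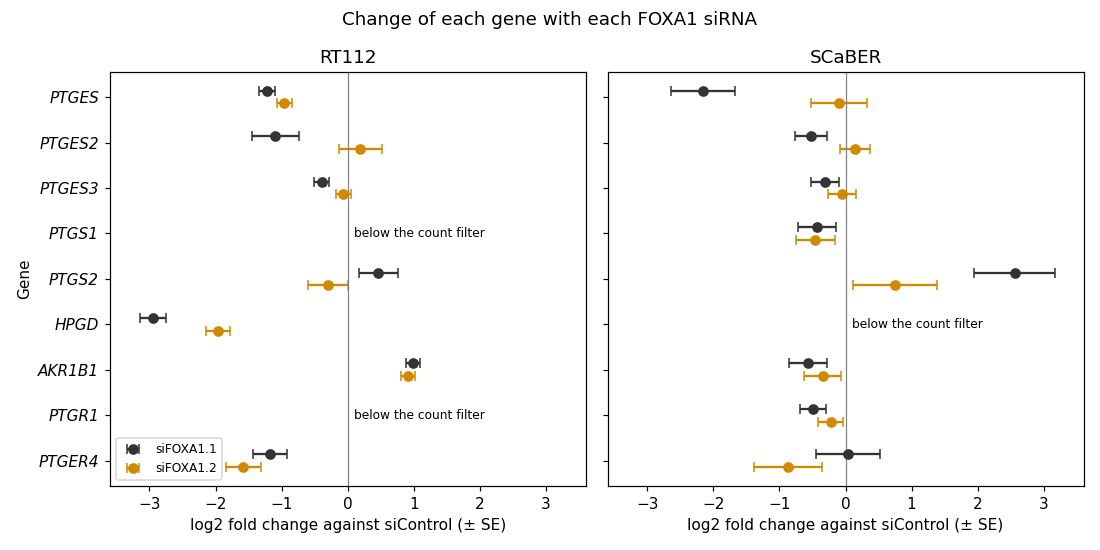
Log2 fold change against the mean of both siControl siRNAs, with its SE, for siFOXA1.1 (dark) and siFOXA1.2 (amber) in RT112 (left) and SCaBER (right). In RT112, HPGD, PTGES and PTGER4 lie to the left and AKR1B1 to the right with both siRNAs, and in SCaBER PTGS2 lies to the right and PTGES to the left with siFOXA1.1.

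In SCaBER, 8 of the 9 genes were fitted, HPGD falling below the filter. With siFOXA1.1, PTGS2 rose and PTGES fell, 2 of 8 genes, against 9.26% of the 11902 genes tested. PTGS2 was 1.83, 1.62, 3.74 and 4.42 CPM with siControl and 13.1 and 20.4 CPM with siFOXA1.1, a log2 rise of 2.56 ± 0.61 (SE, edgeR quasi-likelihood test, adjusted p = 0.0166). Both siFOXA1.1 libraries lay above all 4 siControl libraries, and the level was 576% of the siControl mean. The call is lost without siFOXA1.1 replicate 2 (2.25, adjusted p = 0.131), without siControl.2 replicate 1 (2.27, adjusted p = 0.0767) and on log2(TPM + 0.1) (2.52, adjusted p = 0.0538).

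PTGES was 61.7, 164, 50.3 and 132 CPM with siControl and 34.3 and 5.64 CPM with siFOXA1.1. It fell by a log2 value of -2.16 ± 0.49 (adjusted p = 0.0126, edgeR), to 19.5% of the siControl mean, and the libraries of siFOXA1.1 differ from each other by a larger ratio than any other replicate pair for this gene. Without siFOXA1.1 replicate 1 the change is -4.01, without siFOXA1.1 replicate 2 it is -1.34, and without siControl.2 replicate 1 the call is lost (-2.07, adjusted p = 0.0544). The siControl.1 and siControl.2 libraries also stood apart, the former being lower by a log2 value of -1.42 ± 0.50 (adjusted p = 0.615, edgeR). That difference was called with no filter beyond 1 count (adjusted p = 0.000715) and without either siFOXA1.1 library (adjusted p = 0.00693 and 0.0075).

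With siFOXA1.2 in SCaBER none of the 8 genes was called by edgeR's test, 0 had an unadjusted p under 0.05, and DESeq2 called 0, where 0.042% of all genes tested were called. PTGS2 was 5.40 and 4.12 CPM and PTGES 87.0 and 81.0 CPM with this siRNA, with log2 changes of 0.74 ± 0.64 and -0.10 ± 0.43. The siRNAs differed for PTGES, siFOXA1.1 being below siFOXA1.2 by -2.06 ± 0.53 (adjusted p = 0.0365, edgeR), 1 of 8 genes where 4.85% of all were called, a call not made by DESeq2 (adjusted p = 0.131) or on log2(TPM + 1) (adjusted p = 0.0813), and lost without either siFOXA1.2 library or either siControl.2 library (-1.998 to -2.11, adjusted p up to 0.213). For PTGS2 the difference was 1.81 ± 0.74 (adjusted p = 0.201, edgeR). Pooling both siRNAs, edgeR called none of the 8 genes and DESeq2 0, 1 having an unadjusted p under 0.05, where 0.0084% of all genes were called. Between the control siRNAs edgeR called none and DESeq2 0, 1 having an unadjusted p under 0.05, where 0.0672% of all genes were called.

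AKR1B1 was 126, 107, 233 and 161 CPM with siControl in SCaBER, 69.7 and 136 CPM with siFOXA1.1, and 125 and 116 CPM with siFOXA1.2. The log2 changes were -0.57 ± 0.29 (adjusted p = 0.254, edgeR) and -0.35 ± 0.28 (adjusted p = 0.999, edgeR), beside 0.99 ± 0.10 and 0.91 ± 0.10 in RT112. The difference between the lines was not tested, because the RT112 values chose the gene. The siFOXA1.1 change in SCaBER passed the threshold without siFOXA1.1 replicate 2 (-1.08, adjusted p = 0.0424).

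PTGR1 was 184, 203, 240 and 221 CPM with siControl, 126 and 170 CPM with siFOXA1.1, and 176 and 181 CPM with siFOXA1.2. It was the only 1 of the 8 genes fitted whose siFOXA1 libraries all lay below its siControl libraries, where 5.28% of all genes tested were separated in either direction, and no test passed (-0.49 ± 0.19, adjusted p = 0.13 and -0.22 ± 0.19, adjusted p = 0.999, edgeR). PTGS1 was 53.9, 47.9, 30.9 and 62.5 CPM with siControl, 33.5 and 36.9 CPM with siFOXA1.1 and 30.5 and 39.1 CPM with siFOXA1.2 (-0.43 ± 0.29 and -0.45 ± 0.29, adjusted p = 0.426 and 0.999, edgeR). PTGES2 and PTGES3 gave -0.53 ± 0.24 and -0.31 ± 0.21 with siFOXA1.1 (adjusted p = 0.204 and 0.438, edgeR), and 0.14 ± 0.23 and -0.05 ± 0.21 with siFOXA1.2 (adjusted p = 0.999 for both, edgeR). PTGER4 was 16.97, 8.28, 31.2 and 14.6 CPM with siControl, and 7.76 and 25.7 CPM with siFOXA1.1, which overlap the controls. With siFOXA1.2 it was 10.5 and 7.29 CPM (log2 -0.87 ± 0.51, adjusted p = 0.999, edgeR). HPGD, below the filter, was 0.998, 1.30, 0 and 0.883 CPM with siControl and 1.33, 0, 0 and 0 CPM with siFOXA1 (exact two-sided permutation test, p = 0.486, with a smallest possible p of 0.0286). With controls this close to the limit of 3 counts, a fall of HPGD in SCaBER was not detectable at this depth.

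Within each batch, HPGD, PTGES, PTGER4 and AKR1B1 kept their directions in RT112. HPGD was lower by log2 ratios of -2.96 and -3.36 with siFOXA1.1 and of -1.96 and -2.14 with siFOXA1.2 in batches 1 and 2, PTGES by -1.16 and -1.58 and by -0.95 and -1.01, and PTGER4 by -1.16 and -1.56 and by -1.74 and -1.51. AKR1B1 was higher by 1.01 and 0.69 and by 0.93 and 0.85. The other fitted genes were less even: PTGES2 gave -0.63 and -2.06 with siFOXA1.1 and 0.75 and -0.65 with siFOXA1.2, PTGS2 gave -0.098 and 0.68 and then -0.19 and -0.52, and PTGES3 gave -0.39 and -0.71 and then -0.023 and -0.18. In SCaBER the siFOXA1.1 ratios of PTGES were -1.72 and -4.02 and those of PTGS2 2.92 and 2.32.

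The other genes of the pathway were taken from 8 lists of 67 genes, of which 31 were tested in RT112 and 34 in SCaBER. With siFOXA1.1 in RT112, 14 were called, 6 higher and 8 lower (median -0.21 against -0.01 over all genes), where 32.6% of all genes were called. That split depends on the scale: library totals called 16, 5 of them higher. On log2(TPM + 1) and on log2(TPM + 0.1) limma called 15, 1 of them higher. The directions given by list below are those of edgeR. With siFOXA1.2, 3 were called, 1 higher and 2 lower (0.01 against 0.01), where 2.04% of all genes were. Between the RT112 controls, 4 of the same 31 genes were called, 2 higher and 2 lower, where 2.36% of all genes were. In SCaBER 2 were called with siFOXA1.1, 1 higher and 1 lower (-0.06 against 0.01), and 5 by DESeq2, where 9.26% of all genes were called by edgeR. With siFOXA1.2 in SCaBER edgeR called 0 and DESeq2 0 of the list genes, with 4 at an unadjusted p under 0.05 in edgeR's test, where 0.042% of all genes were called. By list, against the same 32.6%, siFOXA1.1 in RT112 gave calls for 5 of 7 other synthases and reductases tested (1 higher, 4 lower), 3 of 5 HSP90 partners of PTGES3 (1 higher, 2 lower), 2 of 8 inducers of PTGS2 and PTGES (both higher), 1 of 3 genes of arachidonic acid release (lower), 1 of 6 of the lipoxygenase branch (higher), the 1 AKR1B paralog tested (lower) and the 1 transport gene tested (higher). None of the 8 other prostanoid receptor genes passed the filter in either line, the highest count of any being 23 for PTGER1, so that PTGER4 was the only prostanoid receptor fitted.

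Among other terminal synthases and reductases, AKR1C1 and AKR1C2, reductases that act on prostaglandins and steroids, were called lower with both siRNAs in RT112. AKR1C1 was 155 ± 36.6 CPM with siControl and 56.2 ± 24.2 CPM with siFOXA1 (SD, n = 4), with log2 changes of -1.90 ± 0.21 and -0.99 ± 0.19 (adjusted p = 1.58e-06 and 0.00924, edgeR). AKR1C2 was 203 ± 74.3 and 54.2 ± 25.4 CPM (-2.41 ± 0.18 and -1.34 ± 0.17, adjusted p = 2.57e-08 and 0.000165, edgeR). With siFOXA1.2, limma called 0 of the list genes on log2(TPM + 0.1), so both of these calls were lost there. On log2(TPM + 1) limma called 1 list gene, so at least 1 of these calls was lost. AKR1C1 and AKR1C2 are near-identical, so that reads could be assigned to either. AKR1C2, like HPGD, was higher with siControl.1 than with siControl.2 (1.01 ± 0.18, adjusted p = 0.00541, edgeR).

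CBR1, a carbonyl reductase that can convert the E2 to the F2 form, rose with both siRNAs in RT112, from 85.1 ± 20.1 to 122 ± 19.4 CPM (0.49 ± 0.15 and 0.75 ± 0.14, adjusted p = 0.0147 and 0.00827, edgeR). The controls differed by 0.64 ± 0.17 (adjusted p = 0.0591, edgeR), more than the siFOXA1.1 change. The siFOXA1.2 call of CBR1 was lost on log2(TPM + 1) and log2(TPM + 0.1), where limma called no list gene higher. CBR3, a related carbonyl reductase, held 40 to 105 counts per library with siControl in RT112 and 0 and 1 counts with siFOXA1.1, and 62 and 83 with siFOXA1.2. In SCaBER CBR3 held 40 to 73 counts with siControl, 0 and 8 with siFOXA1.1 and 83 and 150 with siFOXA1.2. The fall with siFOXA1.1 was called in both lines (adjusted p = 5.31e-05 in RT112 and 0.00691 in SCaBER, edgeR), and siFOXA1.1 was below siFOXA1.2 in both (adjusted p = 0.000106 and 0.00606, edgeR). CDC37, an HSP90 co-chaperone listed as a partner of PTGES3, rose with siFOXA1.1 in SCaBER (0.63 ± 0.18, adjusted p = 0.0388, edgeR) and in RT112 (0.61 ± 0.11, adjusted p = 0.000398, edgeR). The SCaBER call was lost on log2(TPM + 1) and log2(TPM + 0.1), where limma called no list gene higher. In RT112 with siFOXA1.1 limma called 1 list gene higher on each of these scales. At least 1 of the RT112 siFOXA1.1 calls of CDC37 and CBR1 was thus lost there. With siFOXA1.2 CDC37 gave -0.09 ± 0.18 in SCaBER and -0.22 ± 0.12 in RT112 (adjusted p = 0.999 and 0.483, edgeR), and the siRNAs differed by 0.72 ± 0.21 and 0.83 ± 0.13 (adjusted p = 0.0677 and 0.000152, edgeR).

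**Figure D4:**
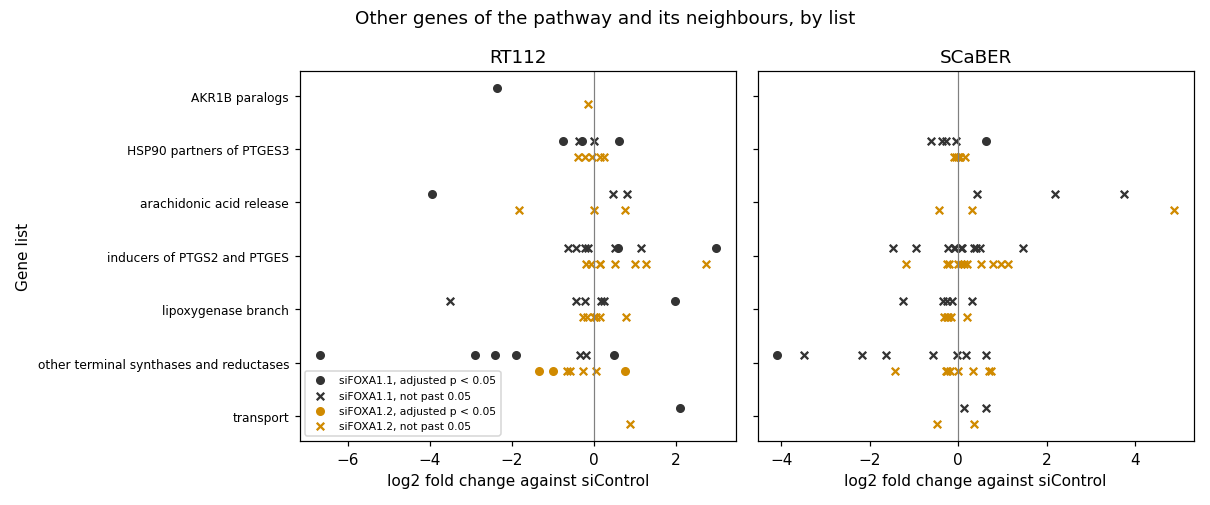
Log2 fold change against siControl for each tested gene of the lists, siFOXA1.1 dark and siFOXA1.2 amber, with filled circles for adjusted p under 0.05 and crosses for the rest. Circles fall mostly in RT112 with siFOXA1.1, and the list of other terminal synthases and reductases holds the circles of siFOXA1.2.

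Over the 16 libraries, each line centred on its own mean of log2(CPM + 1), the genes most like PTGES among 8605 with a mean of at least 10 CPM were SRRT, MRPL57 and KPNB1 (Pearson r = 0.92, 0.92 and 0.92). Those most like HPGD were BCAT2, TKT and DLGAP1-AS1 (r = 0.94, 0.92 and 0.91), and those most like AKR1B1 were CREG1, STEAP3 and NOTCH2 (r = 0.84, 0.84 and 0.83). Between the members, HPGD and PTGER4 had r = 0.51, HPGD and PTGES 0.49, and HPGD and AKR1B1 -0.72, while PTGES and PTGS2 had -0.73. In SCaBER, PTGES was lowest and PTGS2 highest in the siFOXA1.1 libraries. In RT112, PTGS2 overlapped between the siFOXA1 and siControl libraries. The signs of HPGD with PTGES and with AKR1B1 were set in part by the choice of these genes on their RT112 directions. In the SCaBER siControl libraries HPGD held 0 to 8 counts, near the limit of 3 counts, so its SCaBER values add mostly counting error. The libraries share line, siRNA and batch, and these values describe the libraries, with no test.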

How the data were processed

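Counts per gene were deposited by the authors as whole numbers, made by trimming with TrimGalore 0.6.2 (minimum quality 20, minimum length 10), aligning with STAR 2.6.1a to hg38 and counting on GENCODE 29. The study's methods name hg19, and 10 ng of siRNA where the labels give 10 nM. TPM values were deposited by the authors as well, dividing by gene length although the reads come from transcript ends. Libraries were grouped by line and siRNA from the labels.

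The members and lists were chosen with earlier results of these data known. Named list genes had an adjusted p under 0.05 in a SCaBER siFOXA1 comparison or in both RT112 siFOXA1 comparisons, and AKR1B10 and PTGER1 were named after their values were seen. Genes passing filterByExpr were fitted with edgeR 4.0.16 in R 4.3.3 (TMM, quasi-likelihood test, Benjamini-Hochberg over all genes, threshold 0.05), each line with 1 mean per siRNA, and the 8 siControl libraries for the lines. The SE given with edgeR changes was derived as the absolute log2 fold change divided by the square root of the F statistic. DESeq2 1.42.0, limma 3.58.1 on log2(TPM + 1) and log2(TPM + 0.1), library totals, no filter beyond 1 count, a replicate block and leaving out each library were alternatives. Fits were run on simulated counts with the same dispersion for all genes, to check recovery of large set changes. False calls under the spread of these libraries were not checked. The labels number experiment batches, which pairs the libraries. Deviations of same-numbered libraries correlated at -0.01 to 0.02 in RT112 and 0.02 to 0.25 in SCaBER (6 pairs of siRNAs each). Nothing states that cultures were otherwise separate, so p-values measure the spread between these libraries. Replicates of an siRNA differed beyond sampling noise (chi-square per degree of freedom 8.44 to 37.1).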

Additional observations from a re-analysis of the deposited data

Results flagged for a closer look

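Chance sets about 1 in 20 groups of 4 libraries apart. Of 36 groups, those of PTGS1 and PTGR1 in RT112 were left out, as no library exceeded 3 counts. PTGER4 in RT112 siFOXA1.1 replicate 1 stood apart from the other 3 RT112 siFOXA1 libraries, at 21.7 CPM against 14.4 to 15.3 CPM, still below the lowest siControl library at 36.0 CPM. HPGD in SCaBER siFOXA1.1 replicate 1 was 1.33 CPM, 7 counts, where the other 3 SCaBER siFOXA1 libraries were at 0, and all of these lie near the limit of 3 counts.

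AKR1B1 lay on opposite sides of its siControl mean in the lines. All 4 RT112 siFOXA1 libraries lay above the siControl mean, with a mean of 183% of it, and all 4 SCaBER siFOXA1 libraries lay below theirs, with a mean of 71.0%. Within batches, the SCaBER log2 ratios were -0.74 and -0.54 with siFOXA1.1 and 0.09 and -0.77 with siFOXA1.2 in batches 1 and 2, so not all were below. The difference between the lines was not tested, and the SCaBER libraries overlap their controls.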

How the results depend on the processing

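The numbers of members called, which in RT112 include the 3 genes chosen on their values and are a description there, kept within 1.5 times of the value given, in 49 of 60 alternatives that kept all libraries and 67 of 80 that left 1 out. For the RT112 siFOXA1 siRNAs against each other, 2 members became 4 with library totals and on both TPM scales. Between the RT112 controls, 1 became 2 with DESeq2 and 0 on both TPM scales. With siFOXA1.1 in SCaBER, 2 became 1 on log2(TPM + 0.1), and between the SCaBER siFOXA1 siRNAs 1 became 0 with DESeq2 and on both TPM scales. Between the SCaBER controls 0 became 1 with no filter beyond 1 count. Leaving out 1 library, the counts ranged from 4 to 6 with siFOXA1.1 and from 3 to 4 with siFOXA1.2 in RT112, from 1 to 3 between those siRNAs, from 0 to 1 between the RT112 controls, from 0 to 2 with siFOXA1.1 in SCaBER, from 0 to 1 between the SCaBER siFOXA1 siRNAs and between the SCaBER controls, and from 7 to 9 between the lines. The cause was not tested. PTGER4 with siFOXA1.1 in SCaBER, 0.04 on the log2 scale, was -0.047 with the replicate block, -0.14 on log2(TPM + 1) and -0.17 on log2(TPM + 0.1), and -1.01 to 0.64 leaving out 1 library. PTGES3 with siFOXA1.2 in SCaBER, -0.05, was -0.19 to 0.12 leaving out 1 library. The replicate block changed 0 of 77 member calls, with 6 members called with siFOXA1.1 and 4 with siFOXA1.2 in RT112 and 2 and 0 in SCaBER. Over all genes it moved the calls between the SCaBER controls from 8 to 35 and in the pooled SCaBER comparison from 1 to 0. Over all genes, the counts called moved by over 1.5 times with DESeq2, with no filter beyond 1 count, on log2(TPM + 1) and on log2(TPM + 0.1) as follows. The RT112 siFOXA1.2 count of 245 became 430, 391, 72 and 63, that of the RT112 controls went from 283 to 468, 450, 78 and 54, that of SCaBER siFOXA1.2 from 5 to 23, 43, 1 and 1, that of the SCaBER siFOXA1 siRNAs against each other from 577 to 966, 872, 276 and 270, that of the SCaBER controls from 8 to 75, 92, 0 and 0, and the pooled SCaBER count from 1 to 37, 100, 2 and 0. SCaBER siFOXA1.1 went from 1102 to 694 on log2(TPM + 0.1). Leaving out 1 library, the counts over all genes ranged from 64 (without siFOXA1.2 replicate 2) to 380 (without siFOXA1.1 replicate 2) for RT112 siFOXA1.2, for the RT112 controls from 62 when siControl.1 replicate 2 was left out up to 454 when siFOXA1.1 replicate 2 was, from 2269 to 3176 for the RT112 siFOXA1 siRNAs, and from 3291 to 3787 for RT112 siFOXA1.1. In SCaBER they ranged from 526 (without siControl.2 replicate 1) to 1371 for siFOXA1.1, from 108 (without siFOXA1.2 replicate 1) to 1036 (without siFOXA1.1 replicate 1) for the siFOXA1 siRNAs, for siFOXA1.2 from 0 when siControl.2 replicate 1 was left out up to 21 when siFOXA1.1 replicate 1 was, from 0 to 60 without those same libraries for the controls, and from 0 to 3 (without siFOXA1.1 replicate 2) pooled, and between the lines from 4962 to 5565. With 2 libraries per siRNA, and totals of 4528513 to 7604581 counts, small changes of low genes such as PTGS2 in SCaBER are loosely bounded.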
